A study of Mus musculus with 4 samples.

Results

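The genes described here encode the epithelial sodium channel of the collecting duct, the accessory subunits of the sodium pump, and the main salt transport genes of the thick ascending limb of the loop of Henle. They were chosen by name: Scnn1a, Scnn1b, Scnn1g, Atp1b1, Fxyd2, Fxyd4, Slc12a1, Kcnj1 and Umod, with every array probe annotated to them. All 9 genes were on the array, of 15967 genes with an annotated probe, and they had 15 probes. A probe or gene was called expressed when its mean log2 intensity over the 4 libraries reached 5.49, the middle value of the whole array, and 13 of the 15 probes did. Each of the 9 genes had at least 1 such probe, and 9201 genes in all did.

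RNA came from whole kidneys of C57BL/6 and FVB/N mice, which are inbred strains. In each strain a diabetic group, diabetic for 21 days, was set against a control group that received saline and was followed for the same 21 days. All mice were 8 weeks old, and each group mixed males and females in proportions that the labels do not state. The series gives 6 kidneys per group, but each group has 1 column of array values, called a library here, and the sources do not say whether it is a pool. The labels name no transgene and do not state how diabetes was brought about.

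Sodium filtered by the kidney is taken back along the tubule by carriers and channels in the luminal membrane, driven by the sodium pump in the opposite membrane. In the thick ascending limb, the cotransporter NKCC2 takes up sodium, potassium and chloride, and the potassium channel ROMK returns potassium to the lumen so that the cotransporter can go on working. In the collecting duct, the epithelial sodium channel ENaC, under the control of aldosterone, sets the last part of sodium reabsorption.

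With 1 library per group there was no spread between replicates, and no test was possible. Every difference below compares single libraries, as a difference of log2 intensities, and a gene is represented by its probe with the highest mean unless another is named. As a scale for these differences, the disagreement between the probes of the 1159 genes that had exactly 2 expressed probes gave a standard deviation (SD) for the difference seen by a single probe. This SD was 0.33 log2 for diabetic minus control in C57BL/6 and 0.50 in FVB/N. It was 0.41 for FVB/N minus C57BL/6 in controls, 0.58 in diabetics, and 0.60 for the difference between the strains' diabetes effects. It measures disagreement between probes on the same libraries and leaves out variation between animals. Of the 45 differences of the 9 genes over the 5 comparisons, 1 was larger than 2 such SDs. In bulk tissue, fewer cells of a type and less RNA per cell cannot be told apart.

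In FVB/N, all 3 sodium channel genes and the pump subunit Atp1b1 were higher in the diabetic than in the control library, by 1.47-fold to 1.72-fold, while the thick ascending limb genes differed by less. In C57BL/6 no gene of the set was at least 1.5-fold higher, and the gene with the largest difference was Umod, which was lower. Counting genes at least 1.5-fold apart, 3 of 9 were higher in FVB/N, where 12.4% of all expressed genes were, and 0 of 9 were lower, against 13.9% of all expressed genes. After centring on intensity by loess, those background shares were 14.9% and 10.2%. In C57BL/6, 0 of 9 were higher, against 6.14% of expressed genes, and 1 of 9 was lower, against 6.35%. The median difference of the 9 genes was 0.30 in FVB/N, beside -0.10 over all expressed genes, and 0.18 in C57BL/6, beside 0.01 over all. By sign alone, 8 of 9 genes lay above 0 in FVB/N, as did 42.4% of expressed genes, and 7 of 9 lay above 0 in C57BL/6, as did 51.2%.

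**Figure D1:**
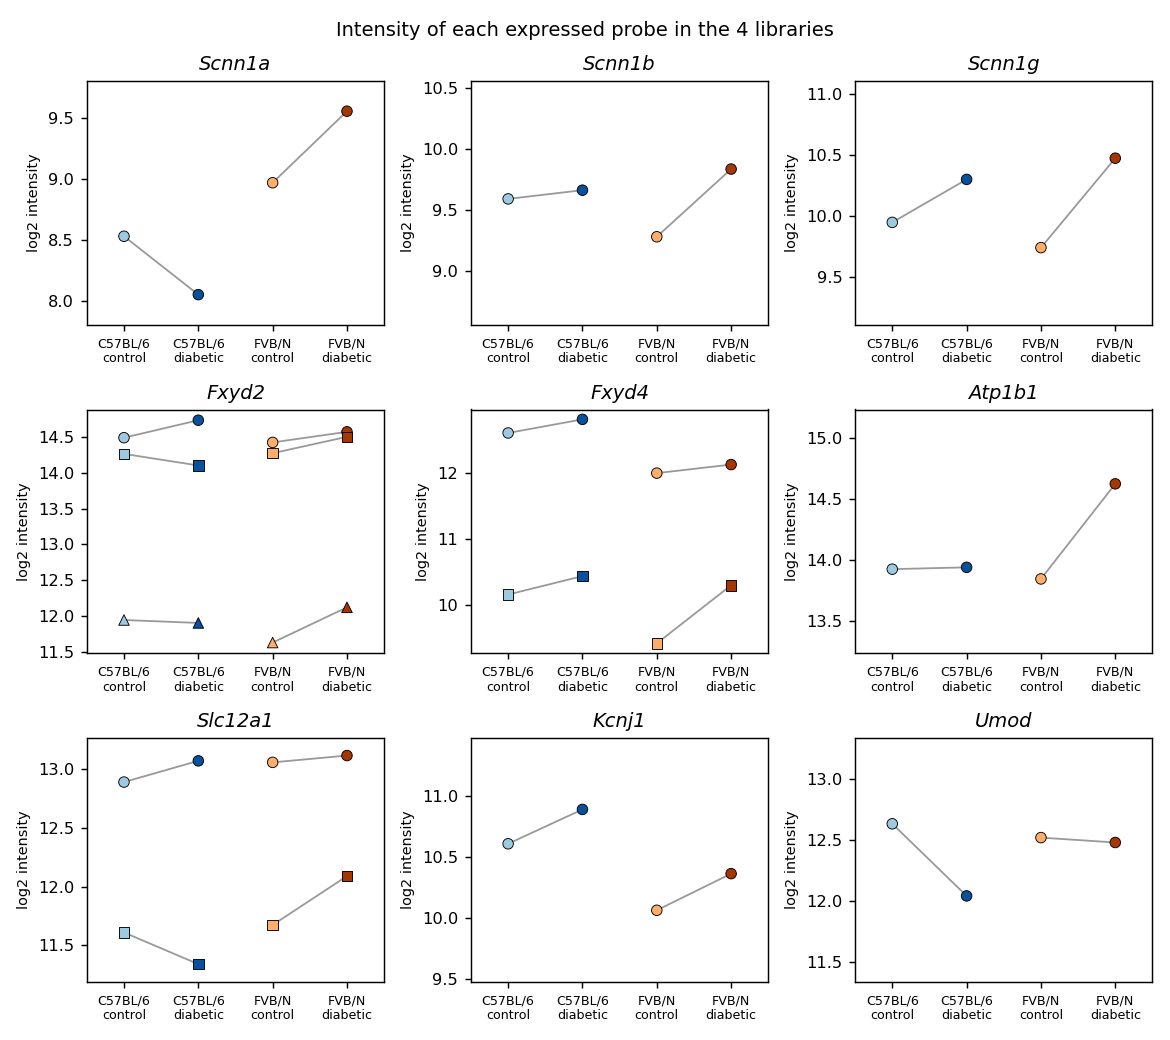
Log2 intensity (vertical axes) of the 13 expressed probes of the 9 genes in the 4 libraries (horizontal axes); symbols within a panel mark different probes, lines join control and diabetic of a strain, each point is 1 library and vertical axes differ in position and span between panels. The FVB/N diabetic library is the highest of the 4 for Scnn1a, Scnn1b, Scnn1g and Atp1b1, and the C57BL/6 diabetic library is the lowest for Umod.

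Scnn1a encodes the alpha subunit, which ENaC needs to form a working channel. Its probe read 8.53 in the C57BL/6 control, 8.05 in the C57BL/6 diabetic, 8.97 in the FVB/N control and 9.56 in the FVB/N diabetic library. The diabetic library was thus the lower of the pair in C57BL/6, at -0.48, and the higher in FVB/N, at 0.59, just past the 1.5-fold mark of 0.585. With each library centred on its median the FVB/N difference was 0.583, short of that mark. Both FVB/N libraries lay above both C57BL/6 libraries. FVB/N exceeded C57BL/6 by 0.44 in controls and by 1.51, or 2.84-fold, in diabetics; this was the 1 difference of the set beyond 2 single-probe SDs, at 2.60 of them. The difference in the diabetic libraries was higher than that of 98.3% of expressed genes. Scnn1a had 1 probe on the array, so no other probe bears on these values.

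Scnn1b encodes the beta subunit of ENaC. It read 9.59 in the C57BL/6 control, 9.67 in the C57BL/6 diabetic, 9.28 in the FVB/N control and 9.84 in the FVB/N diabetic library. The C57BL/6 pair was close, at 0.07, and the FVB/N pair was 0.56 apart, 1.47-fold, with the FVB/N control the lowest of all 4. With loess centring on intensity the FVB/N difference was 0.64, past the 1.5-fold mark.

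Scnn1g encodes the gamma subunit, which is cut by proteases when the channel is activated. It read 9.94 in the C57BL/6 control, 10.30 in the C57BL/6 diabetic, 9.74 in the FVB/N control and 10.47 in the FVB/N diabetic library. Both diabetic libraries were above both control libraries, by 0.35 within C57BL/6 and by 0.73, 1.66-fold, within FVB/N. The FVB/N difference was 1.48 single-probe SDs and higher than that of 91.2% of expressed genes. Scnn1b and Scnn1g showed the same order between strains, with FVB/N below C57BL/6 in controls, by 0.31 and 0.21, and above it in diabetics, by 0.17 for each. Each of these strain differences was under 1 single-probe SD.

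The promoter windows of genes that were higher together in the FVB/N diabetic library are shown with that of Kcnj1, chosen because it alone held the second motif below. Each window runs from 250 bases before to 50 bases after a gene's start in RefSeq, build GRCm38.p6, 5′ to 3′ on the gene's own strand. The Scnn1g window is chr7:121734229-121734528 on the plus strand and that of Scnn1b, the next protein-coding gene along chromosome 7, is chr7:121864788-121865087 on the plus strand. The Atp1b1 window is chr1:164458306-164458605 on the minus strand and the Kcnj1 window chr9:32393735-32394034 on the plus strand. Capitals mark the GC box core GGGCGG and the hexamer AGAACA, which steroid hormone receptors such as those for aldosterone and glucocorticoids recognize, each searched on both strands (CCGCCC and TGTTCT on the opposite one).
Scnn1g: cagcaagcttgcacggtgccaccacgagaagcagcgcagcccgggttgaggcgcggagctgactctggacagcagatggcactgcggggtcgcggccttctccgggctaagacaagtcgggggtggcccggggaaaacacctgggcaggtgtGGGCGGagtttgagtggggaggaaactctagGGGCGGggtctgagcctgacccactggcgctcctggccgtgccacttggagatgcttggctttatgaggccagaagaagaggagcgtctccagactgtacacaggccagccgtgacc
Scnn1b: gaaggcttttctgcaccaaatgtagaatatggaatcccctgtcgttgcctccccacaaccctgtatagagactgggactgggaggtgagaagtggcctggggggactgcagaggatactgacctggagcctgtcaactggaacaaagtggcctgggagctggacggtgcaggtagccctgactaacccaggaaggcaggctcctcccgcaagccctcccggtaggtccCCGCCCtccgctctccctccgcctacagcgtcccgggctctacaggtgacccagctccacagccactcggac
Atp1b1: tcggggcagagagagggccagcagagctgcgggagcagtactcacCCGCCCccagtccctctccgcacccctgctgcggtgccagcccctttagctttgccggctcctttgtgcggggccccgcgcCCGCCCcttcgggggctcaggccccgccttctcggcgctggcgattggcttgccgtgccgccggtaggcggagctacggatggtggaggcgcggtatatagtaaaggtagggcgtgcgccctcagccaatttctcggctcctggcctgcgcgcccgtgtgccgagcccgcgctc
Kcnj1: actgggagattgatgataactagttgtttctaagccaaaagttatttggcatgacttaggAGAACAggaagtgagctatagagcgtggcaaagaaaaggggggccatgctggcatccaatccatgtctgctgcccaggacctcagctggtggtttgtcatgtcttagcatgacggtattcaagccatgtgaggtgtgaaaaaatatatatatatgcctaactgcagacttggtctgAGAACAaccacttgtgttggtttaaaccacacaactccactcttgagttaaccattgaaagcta
The GC box core occurred 2 times for Scnn1g and Atp1b1 and 1 time for Scnn1b. The hexamer AGAACA occurred in none of these 3 windows and 2 times in that of Kcnj1, which held no GC box core. Fxyd4 and Slc12a1, which were not at least 1.5-fold higher in FVB/N on their brighter probes, each held the GC box core 1 time as well. The other Fxyd4 probe was higher by 0.88 in FVB/N, and Scnn1b, at 0.56, was itself short of 1.5-fold. The windows of Scnn1a, which was at least 1.5-fold higher in FVB/N, and of Fxyd2 were not analysed here. Of the 7 genes of the set with a window, 5 held the GC box core and 1 held AGAACA, beside 35.7% and 19.0% of all 32851 windows of 300 bases. No match says only that these letters are not in the window.

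Atp1b1 encodes the beta-1 subunit of the sodium pump, which helps the pump reach the cell surface. It read 13.92 in the C57BL/6 control, 13.94 in the C57BL/6 diabetic, 13.84 in the FVB/N control and 14.62 in the FVB/N diabetic library. The FVB/N diabetic library stood above the other 3, which lay between 13.84 and 13.94. The difference in FVB/N was 0.78, or 1.72-fold, the largest of the set in that comparison, at 1.57 single-probe SDs and above that of 92.3% of expressed genes. In C57BL/6 it was 0.02.

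Fxyd2 encodes the gamma subunit, a small membrane protein that adjusts the pump's affinity for sodium and potassium along the nephron. Its brightest probe read 14.49 in the C57BL/6 control, 14.74 in the C57BL/6 diabetic, 14.43 in the FVB/N control and 14.58 in the FVB/N diabetic library, near the top of the array's range, which ended at 15.84. The diabetic libraries were higher by 0.24 and 0.15. The other expressed probes, 1 of them annotated to another RefSeq transcript, gave -0.16 and -0.04 in C57BL/6, against the sign of the first, and 0.23 and 0.49 in FVB/N. All 3 expressed probes were thus above control in FVB/N, each by less than 1 single-probe SD. The last probe of Fxyd2, annotated to a non-coding transcript, stayed between 4.99 and 5.18, below the expression minimum.

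Fxyd4 encodes the corticosteroid-induced factor CHIF, a pump partner of the collecting duct that raises the pump's affinity for sodium. Its brighter probe read 12.61 in the C57BL/6 control, 12.81 in the C57BL/6 diabetic, 11.997 in the FVB/N control and 12.13 in the FVB/N diabetic library. Both FVB/N libraries lay below both C57BL/6 libraries, by 0.61 in controls and 0.69 in diabetics. Its other probe read 10.15, 10.43, 9.41 and 10.29 in the same order. With that probe the strain difference was -0.74 in controls but -0.14 in diabetics. The diabetic libraries were higher by 0.21 and 0.28 in C57BL/6 on the 2 probes, close to each other, and by 0.13 and 0.88 in FVB/N, further apart. The size of the FVB/N difference of Fxyd4 therefore depends on the probe.

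**Figure D2:**
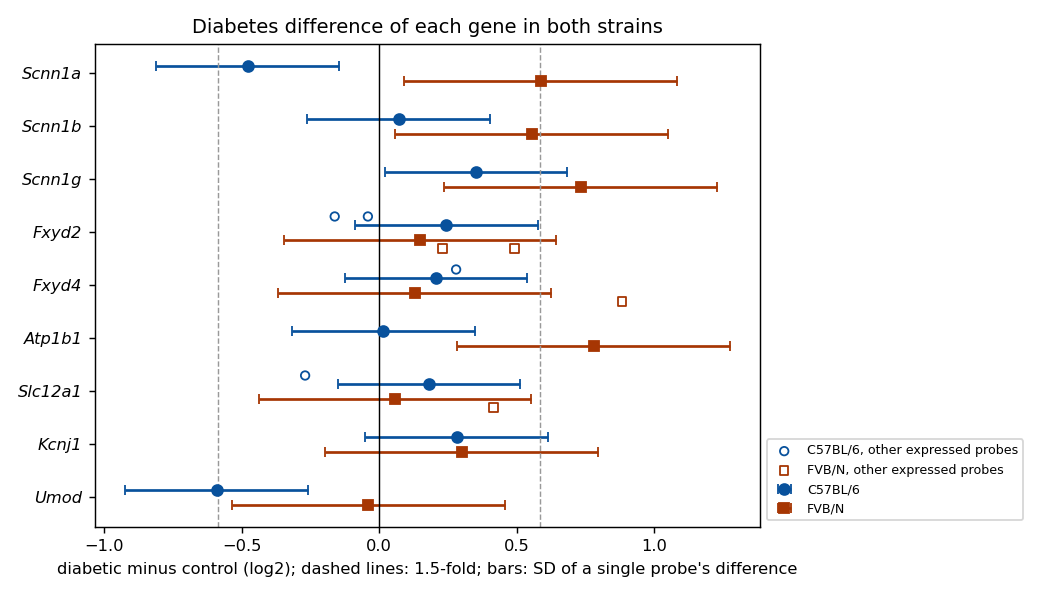
Diabetic minus control difference (horizontal axis, log2) for each of the 9 genes (vertical axis) in C57BL/6, blue circles, and FVB/N, brown squares; bars are 1 single-probe SD to each side, 0.33 in C57BL/6 and 0.50 in FVB/N, open symbols are other expressed probes of the gene and dashed lines mark 1.5-fold. In FVB/N, Atp1b1 at 0.78, Scnn1g at 0.73 and Scnn1a at 0.59 lie beyond 1.5-fold, and in C57BL/6 Umod does, at -0.59.

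Slc12a1 encodes NKCC2, the target of loop diuretics. Its brighter probe read 12.89 in the C57BL/6 control, 13.07 in the C57BL/6 diabetic, 13.06 in the FVB/N control and 13.12 in the FVB/N diabetic library. These 4 values spanned 0.23, the narrowest range among the 9 genes, and the diabetes differences were 0.18 and 0.06. The other probe read 11.61, 11.34, 11.67 and 12.09 in the same order, so that it gave -0.27 in C57BL/6 and 0.42 in FVB/N. The probes disagreed in sign in C57BL/6, and each of these diabetes differences was smaller than 1 single-probe SD.

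Kcnj1 encodes ROMK, which also secretes potassium in the collecting duct. It read 10.61 in the C57BL/6 control, 10.89 in the C57BL/6 diabetic, 10.06 in the FVB/N control and 10.36 in the FVB/N diabetic library. The diabetic library was higher by nearly the same amount in each strain, 0.28 and 0.30, under 1 single-probe SD in both. Both FVB/N libraries lay below both C57BL/6 libraries, by 0.55 in controls and 0.53 in diabetics, which was 1.46-fold and 1.44-fold. The other probe of Kcnj1 had a mean of 4.93, below the expression minimum, and is not used.

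Umod encodes uromodulin, the most abundant protein of normal urine, which is made by the thick ascending limb and favours salt uptake there. It read 12.64 in the C57BL/6 control, 12.04 in the C57BL/6 diabetic, 12.52 in the FVB/N control and 12.48 in the FVB/N diabetic library. The C57BL/6 diabetic library was lower than the other 3, which lay close together. The difference in C57BL/6 was -0.59, or 1.51-fold, at 1.78 single-probe SDs, and 6.20% of expressed genes had a lower value. In FVB/N it was -0.04. Umod had 1 probe.

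**Figure D3:**
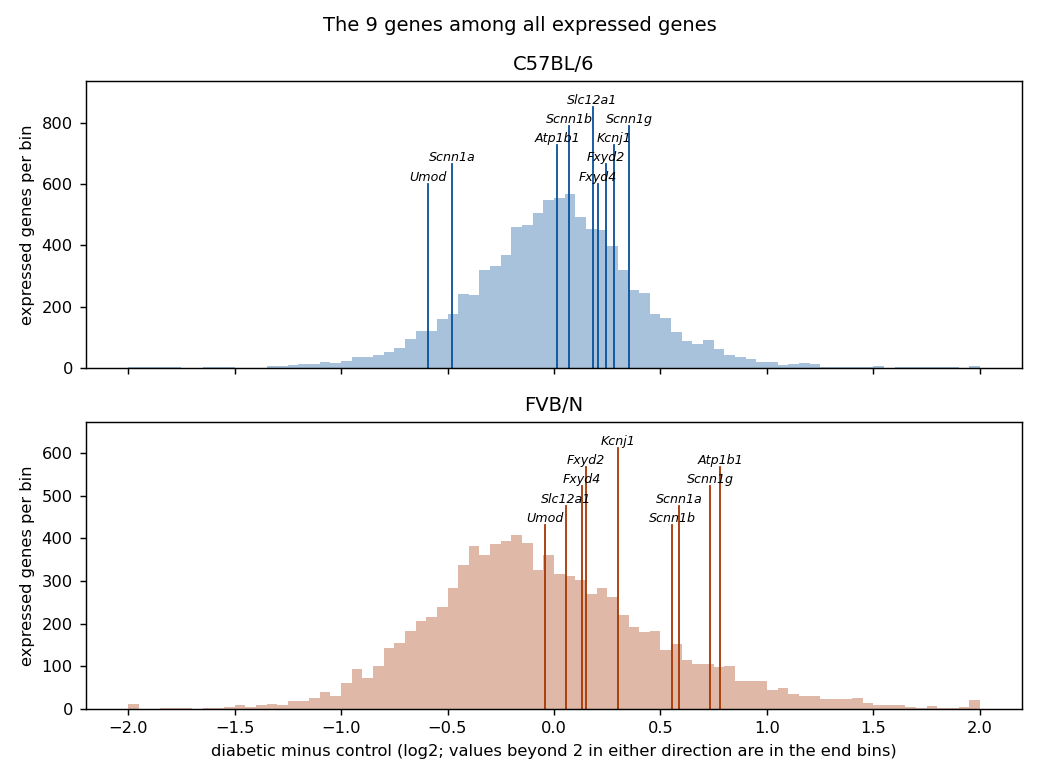
Histograms of the diabetic minus control difference (horizontal axis, log2) over the 9201 expressed genes (vertical axis, genes per bin), with the 9 genes marked by vertical lines, for C57BL/6 above and FVB/N below; the height of the lines carries no value. In C57BL/6 all but Scnn1a and Umod lie between 0.02 and 0.35, and in FVB/N a group of 4 genes lies between 0.56 and 0.78.

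Set against each other directly, the strains differed as follows. In controls, 0 of the 9 genes were at least 1.5-fold higher in FVB/N, where 6.29% of expressed genes were, and 1 of 9, Fxyd4, was lower, where 6.75% were. In diabetics, 2 of 9 were higher, Scnn1a at 1.51 and Atp1b1 at 0.69, beside 14.7% of expressed genes, and 1 of 9 was lower, again Fxyd4, beside 16.9%. With the C57BL/6 diabetes difference taken from that of FVB/N, 2 of 9 were at least 1.5-fold higher, Scnn1a at 1.07 and Atp1b1 at 0.77, beside 15.5% of expressed genes. On this measure 0 of 9 were lower, beside 18.6%. Umod came to 0.55, Scnn1b to 0.48 and Scnn1g to 0.38, each under 1 single-probe SD of 0.60. With loess centring Umod came to 0.64, past both that SD and the 1.5-fold mark. These comparisons reuse the same 4 libraries and are not separate observations.

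The genes with the most similar pattern over the 4 libraries were found by the distance between log2 values centred on each gene's mean. For Scnn1g these were Commd3, Srpx, Kctd15, Uqcrh and Ubxn6, at distances of 0.022 to 0.080. Scnn1b came at rank 140 of 9200 genes with a distance of 0.24, Atp1b1 at rank 788 and Scnn1a at rank 7997. For Umod they were Cdc42bpg, Tfcp2l1, Fam120c, Zfyve1 and Slc27a2, at 0.024 to 0.054, and the nearest of the 9 genes, Slc12a1, was at rank 2979. With 4 libraries, close patterns are common among so many genes.

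Regulators of ENaC were counted in the same way, and their shares past 1.5-fold are to be read against those of all expressed genes. Of 20 genes in this list 17 were measured and 14 expressed. In C57BL/6, 0 of 14 were at least 1.5-fold higher and 2 lower, with a median of -0.16, beside 6.14% and 6.35% of all expressed genes. In FVB/N 2 of 14 were higher and 1 lower, with a median of 0.02, beside 12.4% and 13.9%. These background shares also apply to the lists that follow. The kinase gene Sgk1, an aldosterone target that keeps ENaC at the cell surface, stood at 0.25 in C57BL/6 and -0.03 in FVB/N. Its other probe, closer to the expression minimum, gave -0.39 and 0.83. Nedd4l, the ubiquitin ligase that removes ENaC from the surface, was lower in both diabetic libraries, at -0.54 and -0.44, short of 1.5-fold.

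Hsd11b2 inactivates glucocorticoids and so keeps the aldosterone receptor selective. It read 7.69 in the C57BL/6 control, 7.14 in the C57BL/6 diabetic, 7.06 in the FVB/N control and 8.27 in the FVB/N diabetic library, so it was highest in the library where the sodium channel genes were highest. Furin, a protease that cuts ENaC during its maturation, was at -0.91 in C57BL/6 and 0.43 in FVB/N. The protease inhibitor gene Spint2 was at -0.98 and 1.58, but its other probe gave 0.38 and -0.01. Wwp2, another ubiquitin ligase, was at -0.15 and -0.68. The aldosterone receptor gene Nr3c2 was not analysed here.

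Of 11 other sodium pump and FXYD genes, 8 were measured and 7 expressed. In C57BL/6, 1 was at least 1.5-fold higher, Nkain4, named for its interaction with the pump, at 0.70, and 1 lower, the beta-2 subunit gene Atp1b2, at -0.63. In FVB/N 0 of 7 were beyond 1.5-fold in either direction, with these at 0.08 and -0.18. Nkain4 had 1 probe and a mean of 5.60, close to the expression minimum of 5.49. Its C57BL/6 control value, 5.27, was below that minimum and its C57BL/6 diabetic value was 5.98. Without the C57BL/6 diabetic library, where it was high, Nkain4 would not have counted as expressed. The beta-3 subunit gene Atp1b3, which is an alternative to Atp1b1 in the pump, lay between 11.78 and 11.90 in all 4 libraries; it is named after its values were seen.

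Of 24 other thick ascending limb transport genes, 20 were measured and 16 expressed, and their median was 0.03 in C57BL/6 and 0.05 in FVB/N. In C57BL/6, 0 were at least 1.5-fold higher and 2 lower. These were Oxsr1, a kinase that activates NKCC2, at -0.67, and Ppp1r1b, a phosphatase inhibitor gene, at -0.82. The FVB/N pair had 2 such genes higher and 1 lower. The kinase gene Wnk1, which acts upstream of Oxsr1, was at 1.05 and the sorting receptor gene Sorl1, which affects NKCC2 activity in the limb, at 0.82, while Kl, the gene of klotho, a co-receptor for the phosphate hormone Fgf23, was at -0.69. In the other strain Oxsr1 stood at -0.36, Ppp1r1b at 0.21, Wnk1 at -0.33, Sorl1 at -0.43 and Kl at -0.43. The other Ppp1r1b probe, with a mean of 5.37, below the expression minimum, gave 0.46 in C57BL/6 and -0.57 in FVB/N. The other Wnk1 probes, also below that minimum, gave -0.03 and -0.06 in FVB/N.

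Of 10 potassium and water channel genes of the collecting duct with the receptor Avpr2, 9 were measured and 7 expressed. In FVB/N 2 of 7 were at least 1.5-fold higher and 1 lower, beside 12.4% and 13.9% of expressed genes. In C57BL/6 0 of 7 were higher and 1 lower, beside 6.14% and 6.35%. The water channels Aqp2 and Aqp3 of principal cells were at 2.81 and 2.66 in FVB/N and at -0.24 and -0.31 in C57BL/6, and the potassium channel Kcnk1 was at -0.60 and -0.16. Aqp4 was at 0.15 in FVB/N and -0.84 in C57BL/6. The difference of 0.73 for Scnn1g in FVB/N thus stood beside larger ones for Aqp2 and Aqp3, which lie in the same cells. Avpr2, also a principal cell gene, went the other way in FVB/N, at -0.31. Aqp3 read 5.30 in the FVB/N control library, below the expression minimum, and 7.96 in the FVB/N diabetic library. Its C57BL/6 values, 5.99 in control and 5.68 in diabetic, were close to that minimum.

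**Figure D4:**
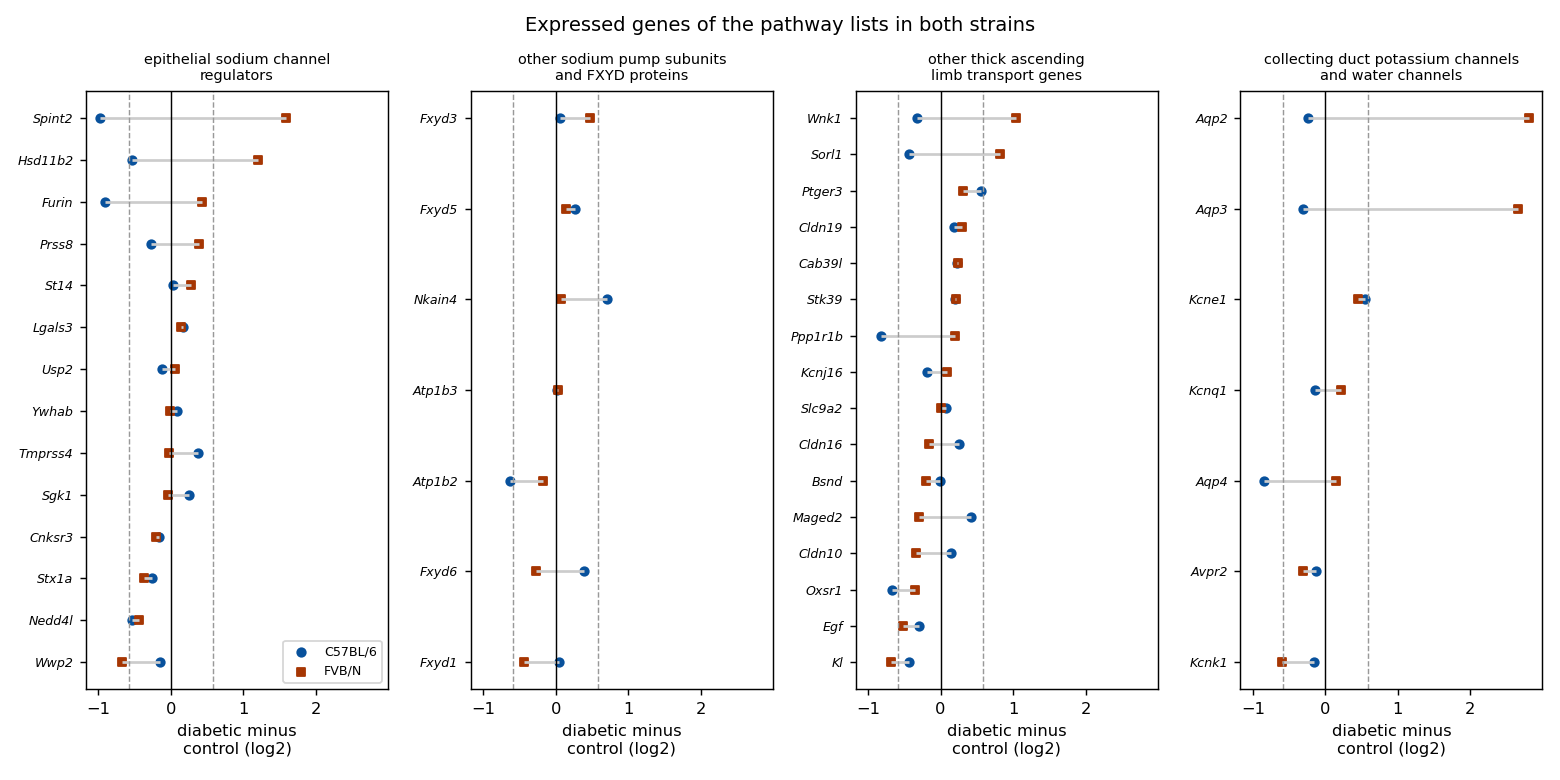
Diabetic minus control difference (horizontal axes, log2) of the expressed genes of the 4 pathway lists, ordered within each panel by the FVB/N value, with C57BL/6 as blue circles and FVB/N as brown squares; each point is a difference of 2 libraries, and dashed lines mark 1.5-fold. Most genes lie within 1.5-fold in both strains, and Aqp2 and Aqp3 reach 2.81 and 2.66 in FVB/N.

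Markers of the cell types that carry these genes were read beside them, with the 9 genes left out of each list. For principal cells of the collecting duct, all 9 markers were expressed. Their summed linear intensity was 9728 units in the C57BL/6 control, 6908 in the C57BL/6 diabetic, 9904 in the FVB/N control and 11692 in the FVB/N diabetic library. In FVB/N 5 of 9 were at least 1.5-fold higher and 0 lower, beside 12.4% and 13.9% of expressed genes, with Aqp2, Aqp3 and Hsd11b2 the largest and a median difference of 0.84. In C57BL/6 1 was higher and 1 lower, with a median of -0.24. The diabetic sum was 1.18 times that of control in FVB/N and 0.71 times in C57BL/6. Tfcp2l1, a transcription factor gene, made up between 61.0% and 80.2% of the sum, and without it, as computed after its values were seen, the ratios were 1.83 and 0.81. Of the 9 markers 6 lay above 0 in FVB/N, while Avpr2 at -0.31, Gata3 at -0.16 and Tfcp2l1 at -0.06 were lower there. The sodium channel genes were thus higher in FVB/N beside a higher principal cell marker sum, though not beside higher values of every marker. In C57BL/6 the differences of the sodium channel genes, from -0.48 to 0.35, stood beside a lower marker sum.

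For the thick ascending limb, 8 of 9 remaining markers were expressed, with sums of 47525 and 48493 in the C57BL/6 control and diabetic libraries and 48588 and 39415 in those of FVB/N. In C57BL/6 0 were at least 1.5-fold higher and 1 lower, and in FVB/N 0 of 8 passed 1.5-fold either way. The transcription factor gene Foxq1 was at -0.64 and -0.31, the prostaglandin receptor gene Ptger3 at 0.56 and 0.31, and the growth factor gene Egf at -0.30 and -0.52. The lower Umod value in the C57BL/6 diabetic library stood beside a marker sum 1.02 times that of control.

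Markers of other cell types also differed. The intercalated cell sum, over 9 markers, was at 0.91 of control in C57BL/6 and 0.68 in FVB/N, with medians of -0.17 and -0.30. In FVB/N 2 of 9 were at least 1.5-fold higher and 3 lower, beside 12.4% and 13.9% of expressed genes, and 3 lay above 0. Foxi1 stood there at 0.97, Slc4a1 at -0.76 and Slc4a9 at 0.75. Foxi1 was below the expression minimum of 5.49 in every library but the FVB/N diabetic one, where it was 6.45. The other Foxi1 probe, with a mean of 5.22, gave 0.23. The distal convoluted tubule sum, over 6 markers, was at 1.08 and 0.72 of control, with medians of -0.03 and 0.09. Pvalb made up between 46.9% and 82.1% of this sum and stood at -0.71 in FVB/N, and without it the ratios were 0.95 and 1.20. Slc8a1 stood at 0.74 and Wnk4 at -0.71 in C57BL/6, and at 0.33 and 0.23 in FVB/N. The proximal tubule sum, over 11 markers, was at 0.84 and 0.79, with medians of -0.29 and -0.38. In FVB/N 2 of these were at least 1.5-fold higher, Slc7a7 at 0.93 and Slc5a12 at 0.71, and 2 lower, Slc22a8 at -1.52 and Slc22a7 at -1.22. In C57BL/6 1 was higher, Gatm at 1.09, and 3 lower. The adipocyte sum, over 6 markers, was at 0.42 and 0.17, with Ucp1 at -5.27, Car3 at -3.17 and Cox8b at -2.83 in FVB/N. The part of these marker differences in the differences of the sodium transport genes was not tested.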

How the data were processed

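Kidney RNA from 4 groups was measured on Illumina mouse bead arrays. Per the labels' protocols, total RNA was extracted with Trizol, cleaned with DNase treatment, and labelled as biotinylated cRNA detected with streptavidin-Cy3. The authors deposited 1 column per group, read here as log2 intensities because the values ran from 4.45 to 15.84 with medians of 5.48 to 5.49. Sorted values differed between libraries at the same rank by a median of 0.0029. The sources used here do not give the authors' normalization, background correction or filters. The number of arrays limits the precision.

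Of 24613 probes, 20984 had 1 gene symbol, 1 had several and 3628 had none in the probe annotation. For all 9 genes the gene identifier gave the same symbol in the RefSeq table. Each gene took its probe with the highest mean. Genes with a mean at or above 5.49 counted as expressed, and the mark for counting was 1.5-fold, a log2 difference of 0.585. No test was run, as each group had 1 library. The single-probe SD is the SD of the difference between the probes of a gene divided by the square root of 2. Named genes comprise all 9 genes, pathway list members at least 1.5-fold apart in either strain, Sgk1, Nedd4l and Nr3c2 whatever their values, up to 3 markers per list with the largest difference, and the 5 genes nearest to Scnn1g and to Umod. Other list genes that are named were picked after their values were seen. The genes and the 10 lists were chosen with earlier results of these data known. Calculations used Python 3.11.15, pandas 2.3.3 and statsmodels 0.14.6 and were tested on simulated data. Alternatives were quantile normalization, median centring, loess centring with a span of 0.3, the mean of all probes, the second probe, no filter, a filter at percentile 75, and a 2-fold mark.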

Additional observations from a re-analysis of the deposited data

Results flagged for a closer look

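Scnn1a differed in direction between the strains, at 0.59 in FVB/N (0.5871) and -0.48 in C57BL/6, and this difference between strains was not tested because each group had 1 library. Among genes of the 4 pathway lists with at least 1 difference of 1.5-fold, 9 also had opposite signs in the strains, likewise untested. The share of all expressed genes with such opposite signs was not computed, so this count has no background beside it. In FVB/N and C57BL/6 in turn, Hsd11b2 stood at 1.205 and -0.54, Furin at 0.43 and -0.91, Spint2 at 1.58 and -0.98, and Wnk1 at 1.05 and -0.33. Ppp1r1b stood at 0.21 and -0.82, and Sorl1 at 0.82 and -0.43. The other Ppp1r1b probe, below the expression minimum, gave -0.57 and 0.46, and the other Spint2 probe gave -0.01 and 0.38. Aqp2 stood at 2.81 and -0.24, Aqp3 at 2.66 and -0.31, and Aqp4 at 0.15 and -0.84. For Furin, Ppp1r1b and Aqp4 the C57BL/6 difference was the larger in size, and for the others the FVB/N difference.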

How the results depend on the processing

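Of 135 values of single genes under the 3 scaling alternatives, 0 moved by 1 single-probe SD or more, nor did any of 20 with the mean of all probes of the genes with several probes. With the second probe 6 of 15 did, all of Fxyd2, Fxyd4 or Slc12a1. The filters, and the probe choice for genes with 1 probe, cannot move a gene's value. No difference that was at least 1.5-fold with the main processing changed sign under an alternative. With the second probe, the difference of diabetes effects went from -0.12 to 0.69 for Slc12a1 and from -0.08 to 0.60 for Fxyd4. These thus changed sign and passed 1.5-fold. No paired analysis was possible because each group has 1 library. With a 2-fold mark, 0 genes were lower in C57BL/6 and 0 higher in FVB/N. Between strains at 2-fold, 0 were lower in controls, 1 was higher and 0 lower in diabetics, and 1 was higher in the difference of diabetes effects. The number lower in FVB/N diabetics was 0 with the mean of all probes and 0 with the second probe, the latter raising the number higher in the difference of effects to 4, since Fxyd4 came to 0.60 and Slc12a1 to 0.69; loess centring raised it to 3, with Umod at 0.64. In FVB/N the number higher was 2 with median centring, where Scnn1a came to 0.583, and 4 with loess centring, where Scnn1b came to 0.64. It was also 4 with the second probe. All second probe counts are of 8 genes, because the other probe of Kcnj1 was not expressed. Of all expressed genes, 18.0% were higher in the difference of effects with the second probe and 18.0% with loess centring. The share higher in FVB/N was 12.3% with median centring, 14.9% with loess centring and 15.3% with the second probe. The share lower in FVB/N between diabetics was 14.4% with the mean of all probes and 16.2% with the second probe. The stricter filter kept all 9 genes but left 5011 of 9201 genes. The share higher and lower was 2.99% and 3.79% in C57BL/6, in place of 6.14% and 6.35%, and 11.8% and 14.3% in FVB/N, in place of 12.4% and 13.9%. In numbers it counted 150 genes higher and 190 lower in C57BL/6 in place of 565 and 584, and 593 and 715 in FVB/N in place of 1142 and 1282. It left 175 and 243 between controls in place of 579 and 621, 686 and 844 between diabetics in place of 1350 and 1554, and 660 and 813 for the difference of effects in place of 1429 and 1707. With the 2-fold mark and the main filter, over 9201 genes, the counts were 95 and 91, 373 and 201, 144 and 239, 513 and 453, and 560 and 522. These follow the same order of comparisons.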

Other observations

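Among other FXYD genes, Fxyd6, a pump regulator, was lower in FVB/N than in C57BL/6 by more than any of the 9 genes. It read 9.98 in the C57BL/6 control, 10.38 in the C57BL/6 diabetic, 9.06 in the FVB/N control and 8.78 in the FVB/N diabetic library. Both FVB/N libraries lay below both C57BL/6 libraries, at -0.92 in controls and -1.59 in diabetics. Fxyd6 had 1 probe and was chosen after its values were seen.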
